A study of Mus musculus with 12 samples.

Results

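Genes of the enteric nervous system and of the pacemaker cells of the gut wall were followed in total mouse colon. A list of 32 gene symbols chose them, in 5 classes: 11 genes of neuronal structure and synapses, 6 fate factors and receptors, 10 transmitter and peptide genes, 3 glial genes and 2 genes of pacemaker cells. All 32 were among the 30263 genes of the colon tables, and all 32 were tested among 17195 genes that passed the filter on low counts. The series holds 12 RNA sequencing libraries of C57BL/6 mice in 4 groups of 3. The colon groups were labelled WT or S1PR4 KO, the latter a knockout of S1pr4, which encodes a sphingosine 1-phosphate receptor of leukocytes. Both colon groups received the carcinogen azoxymethane (AOM, 10 mg/kg at day 0) and dextran sulfate sodium in the drinking water (DSS, 0.5% on days 1 to 6, 21 to 27 and 47 to 52), which injures the colon lining. The labels count these periods as 2 AOM/DSS cycles and 1 further DSS cycle, and date AOM only at day 0. Colons were taken at day 84, and no colon without AOM and DSS was analysed here. The other groups, CD8+ T cells sorted from PyMT mammary tumors under the same genotype labels, enter only the closing section. Replicates are numbered 1 to 3, and nothing says whether each number was its own animal, so p-values measure only the spread between these libraries.

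The enteric nervous system lies in ganglia between the muscle layers and below the mucosa, and derives from neural crest cells that need the receptor RET, its co-receptor GFRA1 and the endothelin receptor EDNRB to colonise the gut. Those of its neurons that supply the muscle either excite it, mainly through acetylcholine and tachykinins, or relax it through nitric oxide and vasoactive intestinal peptide. Enteric glia surround the neurons, and interstitial cells of Cajal, marked by the receptor KIT and the chloride channel ANO1, pace the muscle. In total colon, fewer cells of a type and less RNA per cell cannot be told apart.

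The transmitter genes include several that answer to cyclic AMP in neurons, through factors that bind the element TGACGTCA or its first 5 bases, TGACG. The 250 bases before the annotated start (RefSeq, GRCm38.p6) are shown for 4 of them that differed in how they stood across the libraries, as described further on. Matches to TGACG on either strand are in capitals.
Vip (chr10:5638968-5639217, plus strand): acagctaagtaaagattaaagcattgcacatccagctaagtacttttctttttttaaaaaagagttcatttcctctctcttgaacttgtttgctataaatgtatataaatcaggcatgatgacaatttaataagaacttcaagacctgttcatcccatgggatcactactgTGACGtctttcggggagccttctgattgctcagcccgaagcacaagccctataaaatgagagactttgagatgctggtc
Slc18a3 (chr14:32464851-32465100, minus strand): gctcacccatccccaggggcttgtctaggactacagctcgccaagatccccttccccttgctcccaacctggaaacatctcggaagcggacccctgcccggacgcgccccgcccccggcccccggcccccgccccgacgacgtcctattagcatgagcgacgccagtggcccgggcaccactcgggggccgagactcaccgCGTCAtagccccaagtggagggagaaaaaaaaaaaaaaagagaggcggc
Gal (chr19:3414545-3414794, minus strand): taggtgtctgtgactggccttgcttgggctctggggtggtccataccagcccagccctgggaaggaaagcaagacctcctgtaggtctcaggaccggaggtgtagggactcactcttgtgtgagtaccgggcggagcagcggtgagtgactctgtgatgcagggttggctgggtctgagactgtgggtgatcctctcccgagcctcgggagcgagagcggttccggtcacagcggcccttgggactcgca
Npy (chr6:49822460-49822709, plus strand): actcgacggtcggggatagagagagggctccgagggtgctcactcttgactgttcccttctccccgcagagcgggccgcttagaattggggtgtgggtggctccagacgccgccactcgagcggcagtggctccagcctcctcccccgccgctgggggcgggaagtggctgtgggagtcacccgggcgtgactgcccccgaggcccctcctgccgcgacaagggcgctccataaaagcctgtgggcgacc
Vip held TGACG 79 bases before its start, and Slc18a3 held its reverse complement 49 bases before. Gal and Npy held none in this window. The promoter table matched 22 of the 32 members. Among 8 matched transmitter genes, 6 held TGACG (Nos1, Tac1, Vip, Cartpt, Chat and Slc18a3), and Cartpt alone among the matched members held the full element. Of the 6 matched genes of neuronal structure, 1 held TGACG (Elavl4), as did 2 of 4 fate genes (Hand2 and Ednrb) and none of the 2 glial or 2 pacemaker genes. Over all genes of the table, 19.8% held TGACG and 1.77% the full element in windows of the same length. A match describes letters and not binding.

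The colon libraries held 7304082 to 8652561 counts. S1pr4, the gene named by the genotype, had 61, 47 and 25 counts under the WT label and 154, 162 and 118 under the KO label, so it went against the labels (log2 difference 1.78 ± 0.34 SE, adjusted p = 0.829 in edgeR's quasi-likelihood test). WT and KO below name libraries by label, and every direction rests on those labels. Levels of Xist and of the Y-linked Ddx3y divided the libraries across the labels: WT replicate 1 and KO replicates 2 and 3 held 514.6 to 591 CPM of Xist, and the other 3 libraries held 63.3 to 81.1 CPM of Ddx3y. CPM values are counts scaled to library size with TMM factors. Within either of these sets 1 label has a single library. Markers of the tissue were present: the lowest count of any member in any colon library was 7.

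In colons labelled KO, 27 of 32 members had a lower fitted mean, with a median log2 difference of -0.51, and none passed the test. Over all tested genes 51.0% had a lower mean and the median was -0.0045. KO replicates 2 and 3 held the low values: in them the 11 structural genes stood at 25.1% to 58.6% of the WT mean. KO replicate 1 held every member at or above the lowest WT library, as it did 77.5% of all tested genes. Ret, Npy, Kit, Tac1 and Ednrb had a higher mean under the KO label. Adjusted p-values of the 32 members in edgeR's quasi-likelihood test ran from 0.829 to 0.986, and 0.0% of all tested genes were called. No member had an unadjusted p under 0.05 with edgeR, against 5.06% of all tested genes (2.44% lower and 2.62% higher). DESeq2 called 0 members, where it called 0.0637% of all genes. Limma-voom with quality weights also called 0 (smallest adjusted p = 0.126), with 20 members at an unadjusted p under 0.05, 19 of them lower, where 13.2% of all genes were lower at that p. It gave KO replicate 1 the lowest weight of the 6 libraries, 0.337.

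KO replicates 2 and 3 were the lowest 2 of the 6 libraries for 25 of the 32 members, a pattern chosen after its values were seen. The same held for 18.0% of all tested genes. KO replicate 3 was the lowest library for 22 members, as for 23.9% of all tested genes, and KO replicate 2 for 7. KO replicate 1 was the highest library for 10 members and WT replicate 1 for 9. The share over all tested genes was not computed for either. With KO replicate 1 left out, 28 of 32 members had a lower mean, the median log2 difference was -1.15, and edgeR gave 21 members an unadjusted p under 0.05, all lower, where 12.0% of all genes were lower at that p. None of the 32 passed the adjusted threshold there either (smallest adjusted p = 0.0837). KO replicate 1 was singled out after its values were seen, so the p-values without it cannot serve as support for a difference. Leaving out KO replicate 2 gave a median of -0.37 and leaving out KO replicate 3 gave -0.21. With the replicate number as a block, 2 members had an unadjusted p under 0.05, both lower, against 3.79% of all genes.

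**Figure D1:**
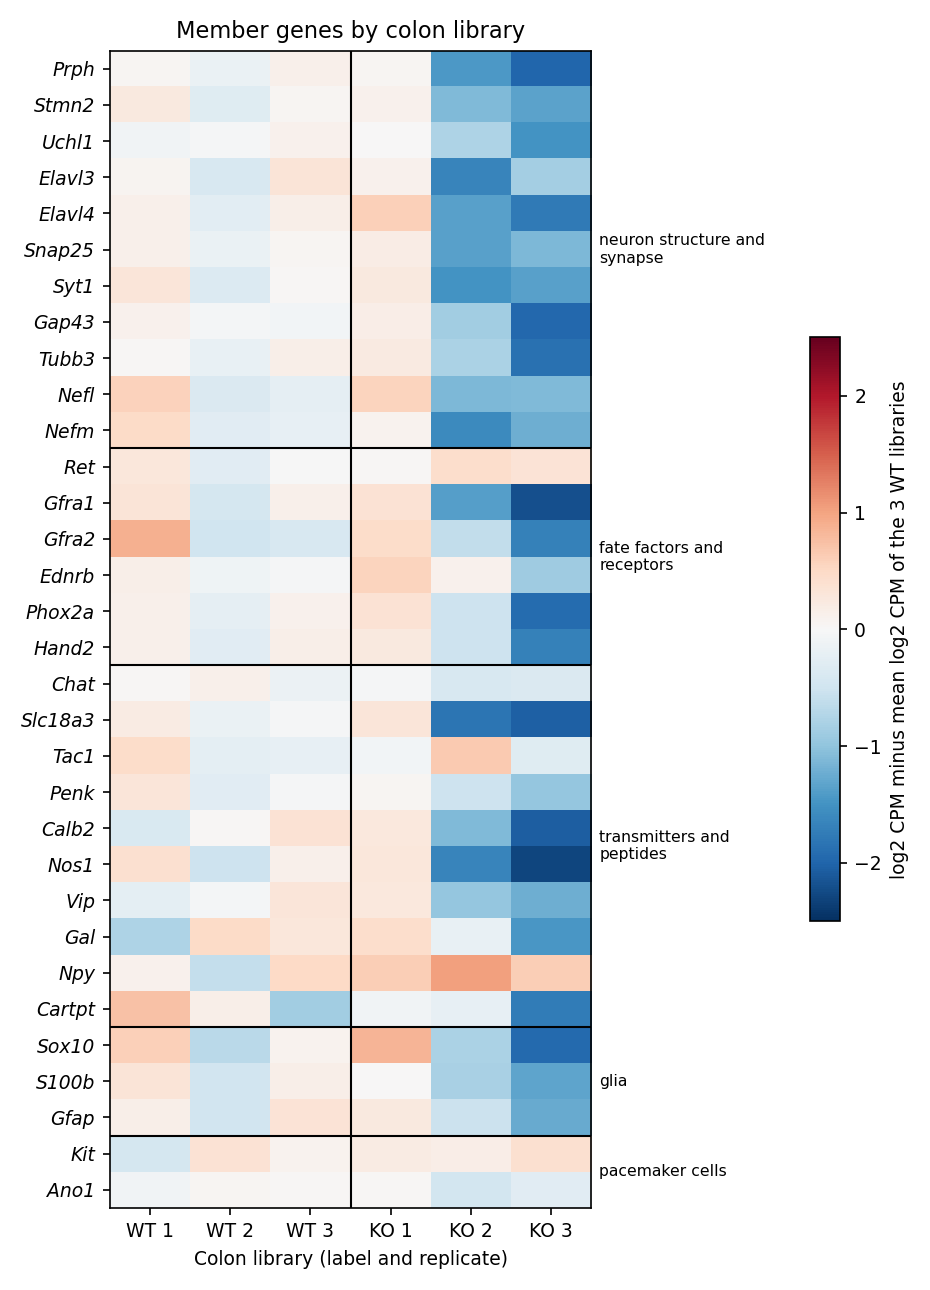
Each row is a member gene and each column a colon library, coloured by log2 CPM minus the mean log2 CPM of the 3 WT libraries, with the 5 classes separated by lines. KO replicate 1 holds all 32 genes at or above their lowest WT library, while KO replicates 2 and 3 are the lowest 2 libraries for 25 of 32 genes. The 7 others are Ret, Ednrb, Tac1, Gal, Npy, Cartpt and Kit.

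Structural and synaptic genes shared their lowest libraries. All 11 had a lower mean under the KO label (median -0.64), and for all 11 KO replicates 2 and 3 were the lowest libraries. Prph (chr15:99055174-99058978), a filament protein of peripheral neurons, stood at 43.5, 37.7 and 45.9 CPM in WT and at 43.9, 15.6 and 10.6 CPM in KO. Its KO libraries thus covered a range wider than the gap between the group means, and the groups overlapped through KO replicate 1. The log2 difference was -0.86 ± 0.51 (SE, adjusted p = 0.829 in edgeR's quasi-likelihood test), and -1.69 without KO replicate 1. Elavl4 (chr4:110203722-110351909), an RNA-binding protein of neurons known as HuD, stood at 14.1, 10.8 and 14.2 CPM in WT and at 19.5, 5.03 and 3.81 CPM in KO. Here KO replicate 1 was above all WT libraries, and the difference of -0.46 ± 0.62 (SE, log2) was smaller than its error. Its relative Elavl3 held 7.45, 5.35 and 8.88 CPM in WT and 7.66, 2.25 and 3.95 CPM in KO, with the lower value in KO replicate 2.

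The synaptic pair had the same lowest libraries. Snap25, which drives vesicle fusion, stood at 33.7, 27.4 and 32.1 CPM in WT and at 35.2, 12.0 and 14.2 CPM in KO. Syt1, the calcium sensor of vesicles, stood at 36.4, 23.3 and 29.9 CPM in WT and at 34.7, 10.4 and 11.4 CPM in KO. For both genes KO replicates 2 and 3 lay close together, between 35.0% and 45.5% of the WT mean. Other members separated them further. Gap43, a protein of growing axons, was at 54.4% of its WT mean in KO replicate 2 and at 25.6% in KO replicate 3, and the neuronal tubulin Tubb3 at 57.3% and 27.4%. Uchl1, an abundant neuronal ubiquitin hydrolase, was at 58.6% and 35.5%. For Stmn2, which acts on microtubules, the 2 libraries again lay close together, at 45.8% and 39.2%. In KO replicate 1 these 4 genes stood at 101% to 116% of the WT mean.

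The neurofilament genes Nefl and Nefm are neighbours on opposite strands of chromosome 14 and share 1108 exon bases, and whether counting used strand was not stated, so their reads cannot be fully told apart. Nefl stood at 16.3, 8.43 and 9.38 CPM in WT and at 16.1, 5.03 and 5.04 CPM in KO. Nefm stood at 17.2, 10.2 and 10.8 CPM in WT and at 13.1, 4.10 and 5.31 CPM in KO. Both were highest in WT replicate 1, and Nefm over Nefl stayed between 0.816 and 1.21 in all 6 libraries.

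Among fate factors and receptors the members split. Gfra1, the co-receptor for the neuronal growth factor GDNF, stood at 29.6, 17.4 and 25.9 CPM in WT and at 30.6, 9.13 and 5.17 CPM in KO (log2 difference -0.69 ± 0.65 SE). Ret (chr6:118151745-118197718), the kinase that signals with it, stood at 58.4, 39.3 and 47.8 CPM in WT and at 48.9, 65.3 and 60.9 CPM in KO (0.27 ± 0.18 SE). KO replicates 2 and 3 were thus the 2 highest libraries for Ret and the 2 lowest for Gfra1. Ret over Gfra1, a ratio of CPM values, was 1.98, 2.26 and 1.84 in WT and 1.60, 7.16 and 11.8 in KO. Ret is also made by cells outside the nervous system, and these libraries do not show which cells its reads came from.

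Hand2, a transcription factor of enteric neurons that stromal cells also express, stood at 29.3, 22.1 and 29.6 CPM in WT and at 31.8, 18.6 and 8.31 CPM in KO. It shares 461 exon bases with AV026068 on the other strand. Phox2a, a factor of autonomic neurons with 7 to 36 counts per library, stood at 127%, 69.5% and 26.3% of its WT mean in the KO libraries. Gfra2, the co-receptor for neurturin, was highest in WT replicate 1 at 40.2 CPM, against 15.2 and 16.4 CPM in the other WT libraries, and its difference of -0.51 ± 0.62 (SE, log2) was 0.094 without that library. Ednrb stood at 23.8, 20.1 and 21.0 CPM in WT and at 31.5, 23.3 and 11.7 CPM in KO, with a difference of 0.037 ± 0.35 (SE, log2), which was -0.31 without KO replicate 1. In KO replicates 2 and 3 these 4 genes lay below the WT range, except Ednrb in KO replicate 2. The RET and endothelin pathway outside the members had 13 of 19 tested genes with a lower mean (median -0.22), with 0 called by edgeR in either direction. Its genes with the smallest p were Kitl, the ligand of KIT, at 0.32 ± 0.16, the endothelin-converting enzyme Ece1 at -0.17 ± 0.10, the endothelin Edn3 at 0.51 ± 0.35 and Gfra4 at -0.76 ± 0.56 (SE, log2).

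Of the transmitter class, a gene of relaxing motor neurons had the lowest difference. Nos1 (chr5:117781032-117958840), the neuronal nitric oxide synthase, stood at 89.4, 47.1 and 74.0 CPM in WT and at 82.8, 21.7 and 13.7 CPM in KO. KO replicates 2 and 3 held 30.9% and 19.6% of the WT mean, the latter the lowest share of any member in any library. The log2 difference was -0.83 ± 0.67 (SE, adjusted p = 0.850 in edgeR's quasi-likelihood test), and -1.99 without KO replicate 1. Vip, whose promoter is shown above, encodes a relaxing peptide and stood at 41.9, 48.1 and 61.5 CPM in WT and at 59.6, 25.4 and 21.4 CPM in KO. Nos1 over Vip was 2.14 in WT replicate 1, 0.978 and 1.20 in the other WT libraries and 1.39, 0.854 and 0.643 in KO, so WT replicate 1 stood apart from its group and KO replicates 2 and 3 were the lowest.

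The cholinergic locus carries Slc18a3, the vesicular acetylcholine transporter (chr14:32462438-32464850), within the span of Chat, the enzyme that makes acetylcholine (chr14:32408203-32465989). Slc18a3 stood at 9.70, 7.49 and 8.25 CPM in WT and at 10.5, 2.38 and 2.04 CPM in KO. Chat stood at 2.13, 2.27 and 1.88 CPM in WT and at 2.04, 1.59 and 1.63 CPM in KO. The ratio of Slc18a3 to Chat was 3.29 to 4.56 in WT and 5.12, 1.50 and 1.25 in KO. Chat had only 12 to 18 counts per library, and tuft cells of the epithelium also make it. The 10 tuft cell markers together held 115 to 168 CPM in WT and 138, 235 and 295 CPM in KO, highest in KO replicates 2 and 3; their part in the Chat values was not tested.

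The remaining genes of the class encode peptides and a calcium-binding protein. Calb2, calretinin of excitatory and sensory neurons, stood at 23.8, 31.3 and 39.5 CPM in WT and at 37.1, 14.4 and 7.35 CPM in KO. Penk, the enkephalin precursor, stood at 35.7, 23.8 and 28.5 CPM in WT and at 29.8, 20.2 and 14.7 CPM in KO. Tac1, the substance P precursor, which enterochromaffin cells also make, stood at 33.5, 20.6 and 21.0 CPM in WT and at 23.1, 38.4 and 19.7 CPM in KO. KO replicate 2, low for Calb2 and Penk, was thus the highest library for Tac1. Markers of enteroendocrine cells summed to 403 to 544 CPM in WT and 411 to 487 CPM in KO, and their part in the Tac1 values was not tested.

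Gal, the galanin precursor, stood at 4.85, 11.5 and 10.0 CPM in WT and at 11.1, 7.27 and 3.0 CPM in KO, with WT replicate 1 below KO replicate 2. Cartpt, a peptide gene of part of the myenteric neurons, ranged from 2.0 to 6.03 CPM in WT and from 1.09 to 3.45 CPM in KO. Npy, a peptide of secretomotor and sympathetic neurons, stood at 1.54, 0.936 and 2.0 CPM in WT and at 2.17, 2.91 and 2.18 CPM in KO. It was the only member whose groups did not overlap. Of all tested genes, 4.55% had groups that did not overlap with KO higher, and 5.04% with KO lower. With 7 to 22 counts per library the difference of Npy, 0.69 ± 0.35 (SE, log2), was not called (adjusted p = 0.829 in edgeR's quasi-likelihood test). The genes shown with TGACG in their promoters (Vip and Slc18a3) had KO replicates 2 and 3 as their lowest libraries and those without (Gal and Npy) did not. These 4 genes were picked because they differed across the libraries, so they cannot show a link between TGACG and that pattern. Tac1, Cartpt and Ednrb with TGACG lacked the pattern, and Prph and Uchl1, among others without TGACG, had it.

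All 3 glial genes had a lower mean under the KO label (median -0.43), with KO replicates 2 and 3 lowest for each. Sox10, the transcription factor of enteric glia, stood at 17.6, 7.22 and 12.2 CPM in WT and at 20.8, 6.75 and 3.0 CPM in KO. Its difference of -0.28 ± 0.71 (SE, log2) lay well within the spread, and leaving out 1 library at a time gave 0.073 (WT replicate 1), 0.16 (KO replicate 3) and -1.34 (KO replicate 1). S100b, a calcium-binding protein of glia, stood at 9.34, 5.35 and 8.25 CPM in WT and at 7.53, 4.23 and 3.0 CPM in KO, and the glial filament gene Gfap at 11.5, 7.49 and 13.1 CPM in WT and at 12.3, 7.14 and 4.36 CPM in KO. WT replicate 2 was the lowest WT library for all 3 genes, and KO replicate 2 lay just below it.

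Further glial genes had 16 of 19 tested with a lower mean (median -0.33) and 0 called by edgeR in either direction. Without WT replicate 1 that median was 0.042. Genes of that list with small p stood on both sides of 0. The ectonucleotidase Entpd2, a surface marker of enteric glia, stood at 43.6 to 44.8 CPM in WT and at 43.3, 31.3 and 31.7 CPM in KO (-0.32 ± 0.15 SE, log2). Ptprz1, a receptor phosphatase, stood at 40.4, 16.4 and 27.0 CPM in WT and at 37.4, 52.2 and 68.9 CPM in KO. Its difference was 0.92 ± 0.37 (SE, log2), and it was not called (adjusted p = 0.829 in edgeR's quasi-likelihood test). Foxd3, a neural crest factor, differed by -0.92 ± 0.55 (SE, log2).

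The pacemaker genes gave no common order of libraries. Kit (chr5:75574916-75656722) stood at 100.1, 174.0 and 143 CPM in WT and at 156, 152 and 180.1 CPM in KO, and WT replicate 1 was its lowest library. Mast cells and secretory cells of the crypt also carry KIT. The 10 mast cell markers summed to 102, 145 and 65.3 CPM in WT and to 78.0, 146 and 160.3 CPM in KO, and their part in the Kit values was not tested. Ano1 (chr7:144588549-144751974) stood at 294, 322 and 319 CPM in WT and at 319, 228 and 256 CPM in KO, a log2 difference of -0.22 ± 0.13 (SE), which was -0.37 without KO replicate 1. KO replicates 2 and 3 were again the lowest libraries for Ano1, at 73.0% and 82.0% of the WT mean, a narrower gap than for any neuronal structural gene. Ano1 was the only member above 0.3 counts per exon base (0.409), where the highest value of any gene in a library was 0.919 to 0.973, and what that ceiling does to its differences was not tested. Kit over Ano1 was 0.340, 0.540 and 0.449 in WT and 0.487, 0.670 and 0.705 in KO. Among 12 further tested genes of pacemaker and PDGFRA-expressing cells 8 had a lower mean (median -0.050, and 0.018 without KO replicate 3) and edgeR called 0 in either direction. The smallest p values there belonged to Thbs4 (-0.15 ± 0.091), Prkcq (0.81 ± 0.50), P2ry1 (0.094 ± 0.088) and Ryr3 (-0.81 ± 0.86, all SE, log2).

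**Figure D2:**
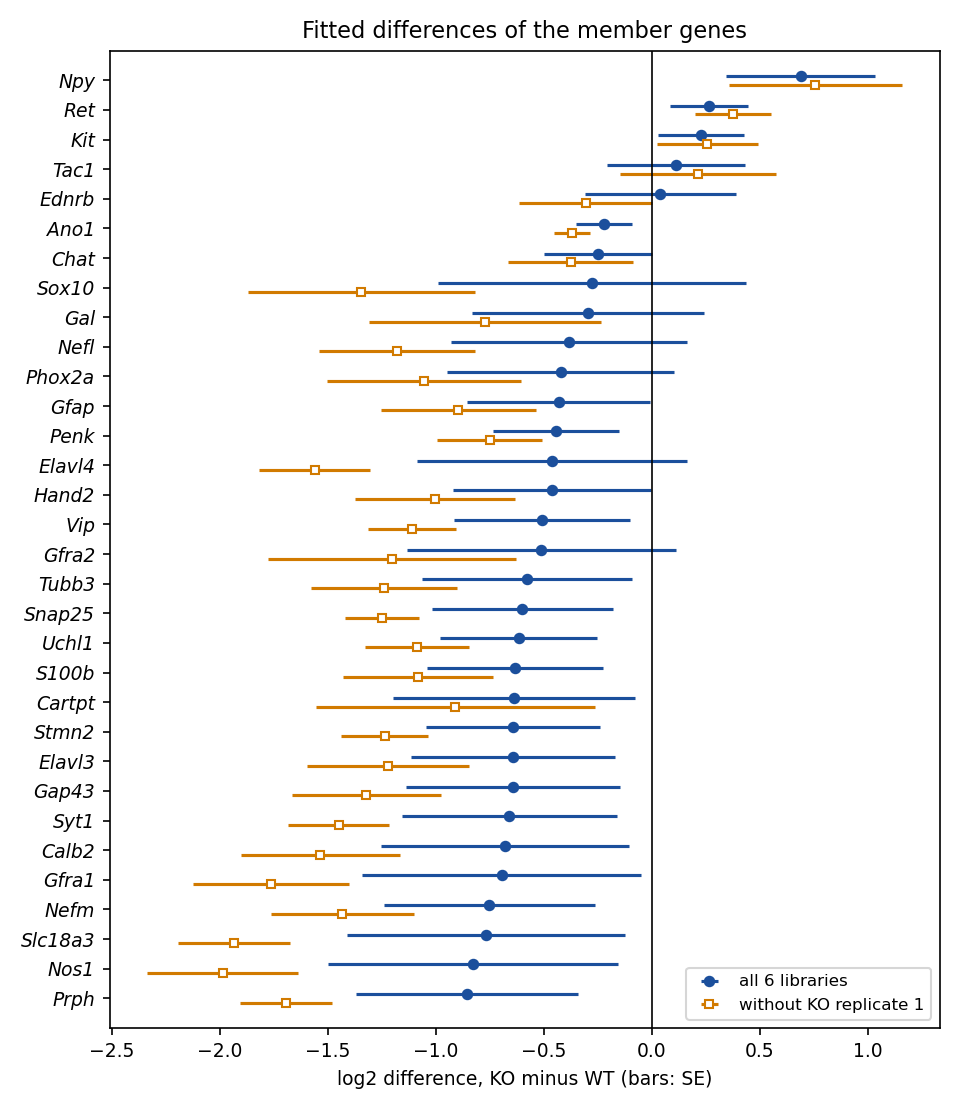
Points give the fitted log2 difference of KO minus WT for each member and bars its SE, for all 6 libraries (filled) and without KO replicate 1 (open). That library was singled out after its values were seen. Nos1, Slc18a3 and Gfra1 sit between -0.83 and -0.69 with all libraries and between -1.99 and -1.76 without KO replicate 1, while Ret, Npy and Kit stay above 0 in both.

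The class levels summarise this order. A class level is the mean over its members of log2 CPM (prior count of 2), minus each gene's mean over the 6 colon libraries. For neuronal structure it was 0.58, 0.18 and 0.45 in WT and 0.61, -0.80 and -1.02 in KO, and for glia 0.64, -0.23 and 0.48 in WT and 0.65, -0.39 and -1.15 in KO. Pacemaker genes stood at -0.27, 0.20 and 0.05 in WT and at 0.11, -0.15 and 0.06 in KO, with no separation of KO replicates 2 and 3. That level averages 2 genes that went opposite ways: Ano1 was lowest in KO replicates 2 and 3 (log2 difference -0.22), and Kit was not (0.23). KO minus WT was -0.81 for neuronal structure, -0.45 for fate genes, -0.49 for transmitters, -0.59 for glia and 0.012 for pacemaker genes. Within the Xist-high libraries (WT replicate 1 against KO replicates 2 and 3) these differences were -1.50, -1.15, -0.90, -1.41 and 0.22. Within the Y-linked libraries (WT replicates 2 and 3 against KO replicate 1) they were 0.30, 0.48, 0.23, 0.53 and -0.014. The lower level of the neural classes under the KO label therefore did not hold within the Y-linked set, and each set has a single library of 1 label. An interaction term for the single genes in edgeR, chosen after seeing the data, passed the adjusted threshold for 0 of 32 members (smallest adjusted p = 0.168) and for 0.0% of all tested genes. At an unadjusted p under 0.05 it held 16 members, against 19.4% of all tested genes.

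Smooth muscle genes also had lower means. All 15 smooth muscle genes had a lower mean under the KO label (median -0.35), 14 of them with KO replicates 2 and 3 lowest, and edgeR called 0 (0 at an unadjusted p under 0.05). Their CPM summed to 3366, 2254 and 2677 in WT and to 2810, 2134 and 1374 in KO. Hspb7, a small heat shock protein of muscle, had the smallest p, at -0.87 ± 0.43, followed by the filament gene Synm at -0.70 ± 0.47 (SE, log2). Set against the muscle level of the same library, neuronal structure stood at -0.08, 0.31 and 0.17 in WT and at 0.28, -0.58 and -0.11 in KO. KO replicate 2 was then the lowest library and KO replicate 3 lay next to WT replicate 1. KO minus WT on this scale was -0.27 for neuronal structure, 0.091 for fate genes, 0.053 for transmitters and -0.051 for glia, each smaller than the SD between KO libraries (0.43, 0.18, 0.074 and 0.30). For pacemaker genes it was 0.55, from -0.93, 0.33 and -0.23 in WT and -0.22, 0.07 and 0.97 in KO, with an SD of 0.63 in WT and 0.62 in KO. How near the muscle genes came to the ceiling of counts per exon base was not examined. What that ceiling does to the muscle level, and so to this scale, was not tested.

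**Figure D3:**
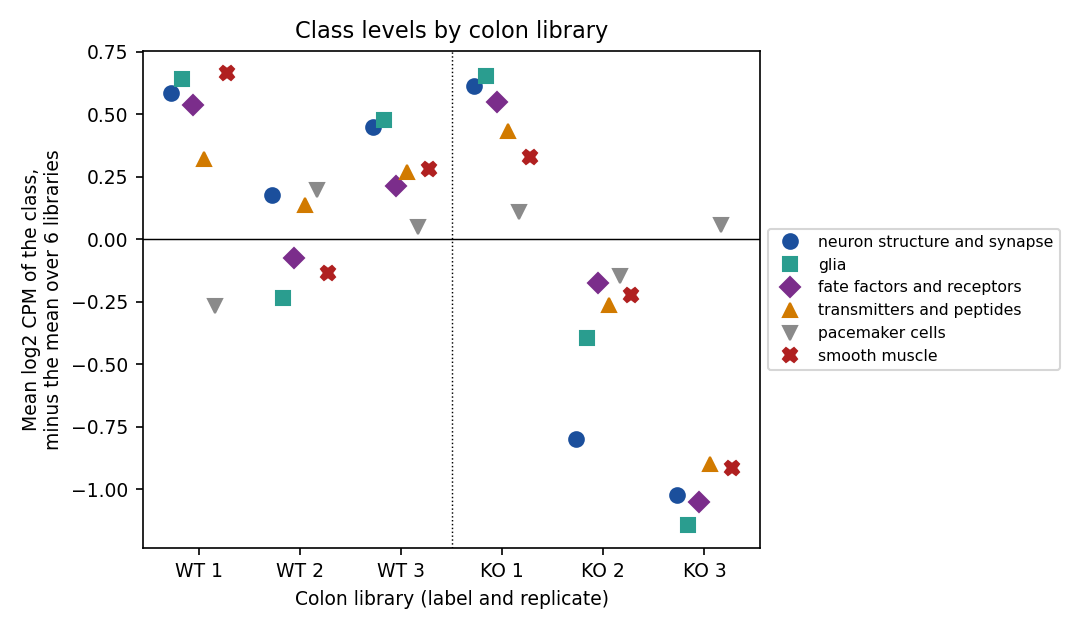
Each symbol is the mean log2 CPM of a class in 1 colon library, minus its mean over the 6 libraries, for the 5 classes and smooth muscle. In KO replicate 3 smooth muscle (-0.92) lies beside the neural classes, in KO replicate 2 it lies higher (-0.22) than neuronal structure (-0.80), and pacemaker genes stay between -0.27 and 0.20.

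Markers of other tissues of the gut were measured in the same libraries. Fibroblast markers had 9 of 10 lower means (median -0.14) and summed to 1656 to 2310 CPM in WT and to 1481 to 2332 CPM in KO. Endothelial markers had 8 of 9 lower (median -0.14), and epithelial markers 4 of 10 (median 0.017), with sums of 2089 to 2555 CPM in WT and 2355 to 2477 CPM in KO. Proliferation genes had 10 of 10 higher means (median 0.24), with sums of 798 to 891 CPM in WT and 946 to 1096 CPM in KO. Leukocyte markers were split 5 and 5 (median 0.028). The epithelial median was -0.038 without WT replicate 1, and the leukocyte median was -0.30 without KO replicate 1, -0.052 without WT replicate 2 and -0.16 without WT replicate 3. Adipocyte markers had 6 of 7 higher (median 1.14) and mesothelial markers 4 of 5 (median 0.80). The adipocyte sums were 53.4 to 133 CPM in WT and 178, 61.8 and 79.7 CPM in KO. Without KO replicate 1 the adipocyte median was 0.53. Squamous markers, of the anal end, summed to 873 CPM in WT replicate 1 and to 28.3 to 99.5 CPM in the other 5 libraries. Skeletal muscle markers were also highest in WT replicate 1 (114 CPM against 23.8 to 65.1 CPM). What part these tissues had in the neural values was not tested. None of the tissue lists had a gene called by edgeR, and DESeq2 called 1, Acta1 of skeletal muscle.

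Neuronal genes outside the members gave a mixed picture. Of 40 further neuronal genes, 27 had a lower mean (median -0.31), with 25 lowest in KO replicates 2 and 3, and edgeR called 0 in either direction. Rbfox3, a splicing factor of mature neurons, stood at 9.11, 2.94 and 2.5 CPM in WT and at 2.55, 0.794 and 0.545 CPM in KO (-1.88 ± 0.76 SE, log2). Tlx2, a homeobox gene of enteric neurons, went the other way with 4.73, 4.01 and 5.0 CPM in WT and 6.77, 10.4 and 32 CPM in KO (1.83 ± 0.60 SE, log2). The syntaxin gene Stx1a and the tubulin gene Tubb2b were also higher, by 0.96 ± 0.34 and 1.00 ± 0.44 (SE, log2), with their 2 highest libraries in KO replicates 2 and 3. At an unadjusted p under 0.05 with edgeR the list held 1 lower gene and 2 higher and the receptor list 1 lower, and DESeq2 called 0 in both.

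Transmitter genes beyond the members had 13 of 16 tested with a lower mean (median -0.36), and receptors for enteric transmitters 18 of 23 (median -0.34), with 0 called by edgeR in either list. Slc6a4, the serotonin transporter, stood at 66.6, 60.3 and 67.8 CPM in WT and at 66.5, 23.7 and 24.1 CPM in KO. Htr3a, a serotonin receptor of enteric neurons, stood at 22.1, 18.9 and 28.6 CPM in WT and at 27.1, 6.48 and 3.95 CPM in KO. Both were lowest in KO replicates 2 and 3, with KO replicate 1 inside the WT range. Which cells the reads of the genes in these 2 lists came from is not shown by total colon. Calcb, a sensory peptide gene, was at 27.8 CPM in WT replicate 1 and at 1.88 to 4.95 CPM elsewhere. Vipr1, a receptor for vasoactive intestinal peptide, differed by -0.21 ± 0.084, Galr1 by -0.92 ± 0.71, Tacr1 by -0.67 ± 0.54, the decarboxylase Ddc by -0.21 ± 0.12 and Bnc2 by -1.21 ± 0.88 (SE, log2).

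Levels can be compared between genes only per length, here as CPM per kilobase of annotated exon. In WT, Ano1 was highest at 49.9 ± 2.46 (SD, n = 3), followed by Uchl1 at 22.1 ± 1.59, Prph at 21.2 ± 2.10, Calb2 at 18.1 ± 4.51, Penk at 18.0 ± 3.67, Kit at 15.6 ± 4.17 and Vip at 14.8 ± 2.95 (SD, n = 3). The neighbours from Uchl1 to Vip differed by less than their spread, whereas Ano1 stood above Uchl1 by more than both SDs together. Chat was lowest at 0.445 ± 0.0428, below Elavl3 at 1.05 ± 0.258 (SD, n = 3). In KO, Ano1 was again highest at 42.8 ± 7.5, now followed by Kit at 18.3 ± 1.70 and Uchl1 at 14.4 ± 7.37 (SD, n = 3). The SD of the KO libraries exceeded that of the WT libraries for these neuronal genes, as KO replicate 1 lay apart from the other KO libraries.

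**Figure D4:**
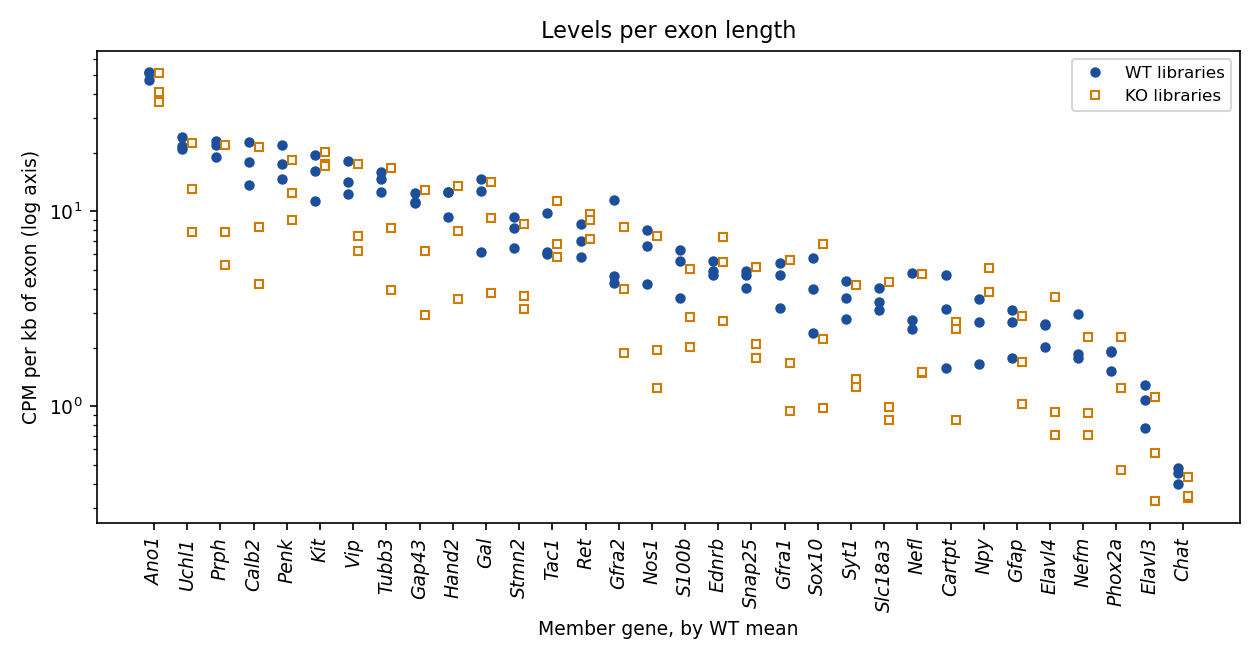
Each point is the CPM per kilobase of exon of a member in 1 colon library, on a log axis, with genes ordered by their WT mean. Ano1 leads at 49.9 and Chat is last at 0.445 in WT, and for most neuronal genes 1 KO point lies among or above the WT points and the other 2 lie below them.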

How the data were processed

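Gene expression was measured by RNA sequencing of total colon and of sorted CD8+ T cells. The authors deposited raw counts, whole numbers of reads for each Ensembl gene, per the file headers. The submitters' processing notes name STAR, TopHat2, RSEM, HTSeq and DESeq2 and the builds mm10 and GRCm38, with no version or role. Removal of duplicates and use of strand were not given in the sources used here. Libraries were grouped by title. Counts of any pair of colon libraries differed by more than sampling noise (chi-square per degree of freedom of at least 5.19).

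Colon genes were filtered with filterByExpr, scaled by TMM and tested, KO against WT with no covariate, with the robust quasi-likelihood test of edgeR 4.0.16 in R 4.3.3. Benjamini-Hochberg adjustment ran over the 17195 genes tested, and the threshold was 0.05. The fit was tested on simulated data. Gene lengths and positions are from GENCODE vM21 (GRCm38). Alternatives were DESeq2 size factors, total counts, no filter, a minimum mean of 50 counts, a block for the replicate number, DESeq2 1.42.0, limma 3.58.1 voom, sex status as a covariate, a prior count of 0.5, medians over members, other lengths, and each library left out.

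The members and all lists were chosen with earlier results of these data known. The text names all members, S1pr4, Xist and Ddx3y, the 4 genes of each pathway list and up to 2 of each cell list with the smallest p, except 1 gene that is not reported here. Ratios between members, the count of genes lowest in KO replicates 2 and 3, and the focus on values without KO replicate 1 were chosen after the values were seen. Reads carry no molecular identifiers, and counts differed between colon libraries by more than sampling noise, as given above.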

Additional observations from a re-analysis of the deposited data

Results flagged for a closer look

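For the neural classes and smooth muscle, KO minus WT went opposite ways in the 2 sets of colon libraries that Xist and Ddx3y define. Each of these class levels was below WT in both KO libraries of the Xist-high set and above both WT libraries in KO replicate 1. Other lists also had KO lower in the Xist-high set and higher in the Y-linked set. They included leukocytes (-0.83 and 0.86), fibroblasts (-0.59 and 0.33), endothelium (-0.56 and 0.34) and adipocytes (-0.52 and 2.02). Among the lists that did not were epithelium (0.29 and -0.070), tuft cells (1.27 and -0.081) and proliferation genes (0.54 and 0.0084). The 2 pacemaker members did not show this reversal either, with 0.22 in the Xist-high set and -0.014 in the Y-linked set. The list of further pacemaker and PDGFRA cell genes did show it, with -0.63 and 0.39. The difference within the Xist-high set less that within the Y-linked set was -1.45 for all members, -1.80 for neuronal structure, -1.63 for fate factors and receptors, -1.13 for transmitters and peptides, -1.95 for glia and -1.49 for smooth muscle (log2). For these class levels the difference between the sets was not tested. For the member genes, an interaction term in edgeR, chosen after seeing the data, passed the adjusted threshold for 0 of 32 (smallest adjusted p = 0.168). At an unadjusted p under 0.05 it held 16 of 32, against 19.4% of all tested genes. Each set has a single library of 1 label, so the sets cannot be told apart from those libraries.

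Members appeared in data outside the colon. The tables of CD8+ T cells, which list part of the genes, hold Sox10 and Kit of the members. Sox10 had 253, 997 and 232 counts under the WT label and 129, 52 and 64 under the KO label. Kit had 509, 2715 and 525 counts in WT and 212, 180 and 167 in KO. The tables summed to 57721, 183504 and 44811 counts in WT and to 26702, 17721 and 17407 in KO. Every KO sum was thus below every WT sum, and these sums are not depths. The lower counts of Sox10 and Kit under the KO label therefore do not show lower expression.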

How the results depend on the processing

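No setting called any of the 32 members, and 27 of the 32 differences kept their sign under every setting. With the replicate number as a block, 28 members had a lower mean, the median was -0.65, and 2 members (Stmn2 and Nefm) had an unadjusted p under 0.05 against none without the block. Deviations of same-numbered libraries had correlations of -0.039, 0.21 and -0.23, and those of unlike-numbered libraries lay between -0.26 and 0.33. With so few libraries per label, these values cannot show whether the numbers mark pairs. Leaving out single libraries moved the median of all members between -1.15 and -0.21, of further neuronal genes between -0.76 and -0.17, of transmitter receptors between -1.05 and -0.18, of squamous genes between -2.79 and 1.43 and of mesothelial genes between 0.42 and 1.10. It moved the log2 difference of Gfra2 between -1.20 and 0.094, Ednrb between -0.31 and 0.35, Tac1 between -0.22 and 0.39, Gal between -0.77 and 0.074 and Sox10 between -1.34 and 0.16. Ednrb was -0.062 with the block and -0.065 with limma-voom, and with sex status as a covariate Tac1 was -0.028 and Gal 0.065. The median of squamous genes was 0.060 with the block and 1.19 with limma-voom. That of mesothelial genes was 0.43 without a filter, 0.049 with a mean of at least 50 counts, 0.43 with DESeq2 and 0.36 with sex status as a covariate, and that of skeletal muscle genes was -1.34 with a mean of at least 50 counts. A median over members gave fate genes -0.090 relative to muscle. Levels in WT per kilobase became 68.0 for Ano1 and 30.7 for Uchl1 with the longest transcript, and 102 for Ano1, 53.9 for Uchl1, 27.9 for Prph, 38.8 for Calb2 and 36.5 for Penk with coding length, since the length itself changed. The cause of the other shifts was not tested. Low counts limit Npy, Chat and Phox2a.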
